A study of Mus musculus with 24 samples.

Results

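Wild-type (WT) mouse testis at postnatal day 22 was compared with WT testis at postnatal day 20, with 4 libraries at each age. These 8 libraries are part of a series of 24 in which WT and homozygous *Atad2* knockout (KO) testes were followed over the first wave of spermatogenesis. The remaining libraries, used here for the common estimate of spread and for side by side values, are 4 KO at day 20, 4 KO at day 22, and 2 of each genotype at days 24 and 26. WT animals carried no allele or treatment that the labels name, and their strain was not given in the sources used here. The KO animals carried a *lacZ* insertion in *Atad2* together with the loss of an exon through a *CMV*-driven Cre recombinase, which acts in all tissues. The labels give testis as the tissue, while a protocol field also speaks of sorting germ cells into fractions, so the markers of somatic cells were examined below. The methods of the study call the replicates biological, but no source used here ties each library to an animal of its own, so the p-values measure the spread between these libraries. The labels hold more replicates for day 20 than those methods mention, and all were used. Every gene in the tables was eligible: of 24456 listed, 17170 passed the filter on low counts, run over all 24 libraries, and were tested.

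In the newborn mouse the germ cells enter spermatogenesis together. The oldest cells of this wave complete meiosis during the third week of life and then form the first haploid round spermatids, which build an acrosome and a flagellum before their chromatin is repackaged. Each later day adds more advanced spermatids to the tubules, while spermatogonia, Sertoli cells and the interstitial Leydig cells are present throughout. The interval from day 20 to day 22 was examined because spermatids accumulate in it.

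The total of counts assigned to genes ran from 10709667 in WT_d20_2 to 19491935 in WT_d22_4, where libraries are named by genotype, day and replicate. At these depths 3 counts were worth 0.153 to 0.316 CPM. CPM is a gene's count per 1000000 counts of its library, with the library's size scaled by TMM (the trimmed mean of M values). Along the first principal component, with 55.5% of the variance, the ages were separate, with scores of -71.6 to -25.8 at day 20 and 40.4 to 62.7 at day 22. Library WT_d20_2 stood apart. Its scaling factor was 0.887, read pairs with several alignments were 13.7% of its table against 5.98% to 9.16% in the other WT libraries of both ages, mitochondrial ribosomal RNA was 3.26% of its counts against 0.485% to 0.816%, and its score on the second component (20.4% of the variance) was -62.5. Where the call or the direction of a named gene changed without this library, that is stated below. Sertoli cell genes (*Sox9*, *Wt1*), Leydig cell genes (*Cyp17a1*, *Star*) and genes of every germ cell stage were detected in all 8 libraries.

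Between day 20 and day 22, 3437 genes changed (20.0% of those tested, adjusted p under 0.05 in the quasi-likelihood test of edgeR), of which 2210 rose (12.9%) and 1227 fell (7.15%). Another measure of breadth, an unadjusted p under 0.05, was met by 5722 genes. The rises were often large and most falls were small. The median log2 fold change was 0.93 among genes that rose, -0.48 among genes that fell and -0.02 over all genes tested. A change of at least 2-fold was seen in 1043 of the genes that rose (47.2%) and in 32 of those that fell (2.61%), and a change of at least 16-fold in 295 and 0. Of the genes that rose, 261 had at most 3 counts in every day 20 library and 58 had none at all at day 20. The genes that rose together took 7.65% to 11.7% of all counts in the day 20 libraries and 14% to 16.7% at day 22. The genes that fell took 8.84% to 9.62% and then 6.30% to 6.93%. Single libraries mattered more for the falls: without WT_d22_1, 504 genes fell and 1693 rose, without WT_d22_3, 663 fell, and without WT_d22_4, 758 fell. Without WT_d20_2, 2346 rose and 1418 fell. In a fit restricted to these 8 libraries, 1134 rose and 270 fell of 15501 tested.

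**Figure D1:**
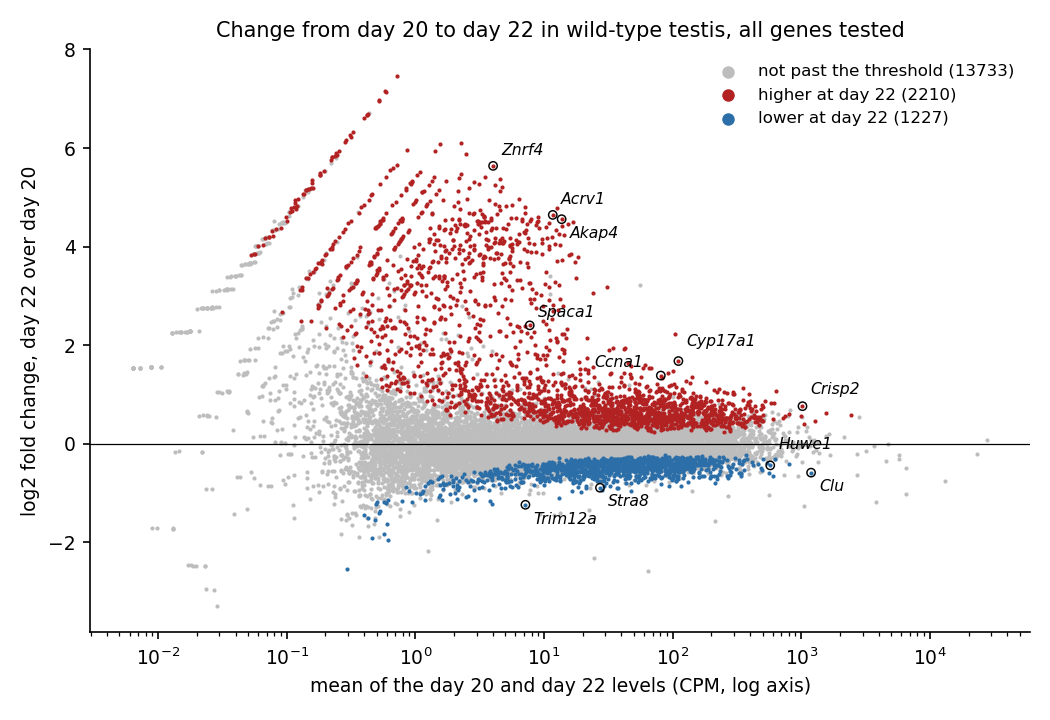
Change of every gene between WT day 20 and day 22 (vertical axis, log2 fold change) against its mean level in the 8 libraries (horizontal log axis, CPM), with genes that rose, genes that fell and the other genes in separate colours; 44 tested genes without a count in these libraries are left out. The 2210 rises reach a log2 fold change of 7.47 and 261 of them had at most 3 counts in every day 20 library, while the 1227 falls reach -2.54, with a median of -0.48 and 32 of them of at least 2-fold.

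Known sperm and spermatid genes stood among the largest rises of genes that reached a mean of 5 CPM with no overlap between ages. Here and below, a value that stands alone before an adjusted p is the log2 fold change of day 22 against day 20, and levels with ± are the mean and SD of 4 libraries. *Znrf4*, a testis gene coding for a membrane-bound ubiquitin ligase of the endoplasmic reticulum (mm10, chr17:56511248-56512431, minus strand), was at 0.157, 0.105, 0.0578 and 0.288 CPM in day 20 replicates 1 to 4 and at 11, 6.27, 7.86 and 6.44 CPM in day 22 replicates 1 to 4 (log2 fold change 5.64 with SE 0.745, adjusted p = 0.000117). *Capza3*, the capping protein subunit of sperm actin (chr6:140041252-140042778, plus strand), was at 0.0786, 0, 0.116 and 0.720 CPM and then at 12.3, 7.69, 8.68 and 8.29 CPM (log2 fold change 5.20 with SE 0.847, adjusted p = 0.000442). In both genes every day 22 library stood far above every day 20 library, and for *Capza3* the highest day 20 library was WT_d20_4. *Apobec4*, a member of the cytidine deaminase family, rose from 0.152 ± 0.0993 to 6.78 ± 1.69 CPM (5.42, adjusted p = 0.000212). *Galntl5*, a glycosyltransferase-like protein of the acrosome, rose from 0.225 ± 0.230 to 8.89 ± 3.32 CPM (5.37, adjusted p = 0.000957). *Sun5*, which anchors the sperm head to the tail, rose from 0.236 ± 0.244 to 7.30 ± 1.51 CPM (4.96, adjusted p = 0.00101). *Gapdhs*, the glycolytic enzyme bound to the flagellum, and *Hyal5*, a sperm hyaluronidase, rose with log2 fold changes of 4.96 and 4.82 (adjusted p = 0.000802 and 0.0015). The day 20 means of these 7 genes lay between 0.152 and 0.377 CPM, at or close to what 3 counts are worth, so the size of each fold is set by few counts: *Znrf4* had 2, 1, 1 and 4 counts in the 4 day 20 libraries. All 7 remained past the threshold with any 1 of the 8 libraries left out. Without WT_d20_4 their log2 fold changes were 6.81 for *Capza3*, 6.36 for *Galntl5*, 6.07 for *Sun5*, 5.92 for *Gapdhs* and 6.72 for *Hyal5*.

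**Figure D2:**
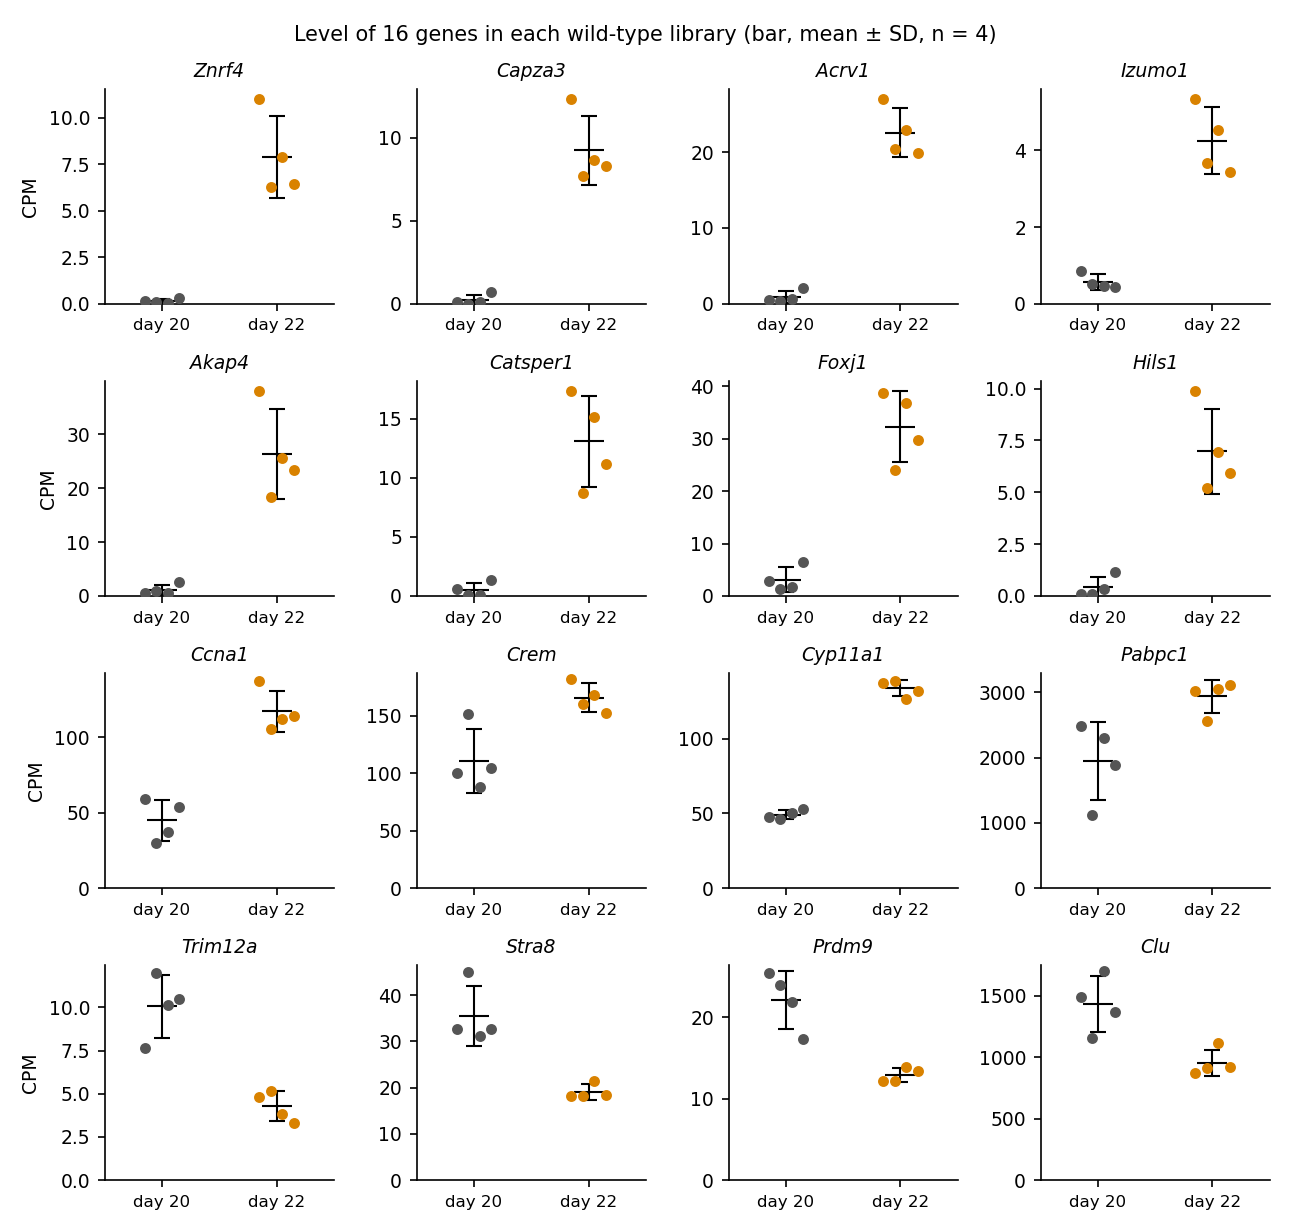
Levels (CPM) of 16 genes in each of the 4 WT libraries of day 20 and of day 22, a point for each library and a bar for the mean ± SD (n = 4). *Znrf4*, *Capza3* and *Acrv1* go from near 0 to well above it, *Crem*, *Pabpc1* and *Ccna1* rise from a level already present at day 20, and *Trim12a*, *Stra8*, *Prdm9* and *Clu* fall.

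The 120 bases before the start site of 8 of the genes that rose are printed here, since the promoters of the risen genes are compared for short motifs further on. They were picked after their values were seen, to show each motif in its place. Sequences and start sites are RefSeq's, on GRCm38.p6, the patch release of the build the authors aligned to, and each runs 5′ to 3′ on the strand of its gene. Capitals mark matches, on either strand, to ACAATG (the core recognised by SOX factors such as SOX30), GTTGCCA (recognised by RFX factors such as RFX2) or TGACGTCA (the cyclic AMP response element recognised by CREM).
Znrf4 (chr17:56512484-56512603, minus strand): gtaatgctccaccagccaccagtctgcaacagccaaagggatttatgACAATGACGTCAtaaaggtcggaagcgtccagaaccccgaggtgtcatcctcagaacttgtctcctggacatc
Acrv1 (chr9:36693100-36693219, plus strand): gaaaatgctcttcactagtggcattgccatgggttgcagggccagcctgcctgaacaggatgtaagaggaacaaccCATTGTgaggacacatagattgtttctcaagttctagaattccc
Hils1 (chr11:94967473-94967592, plus strand): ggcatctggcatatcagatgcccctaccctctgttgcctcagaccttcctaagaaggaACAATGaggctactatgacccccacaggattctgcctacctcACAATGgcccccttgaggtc
Akap4 (chrX:7067395-7067514, plus strand): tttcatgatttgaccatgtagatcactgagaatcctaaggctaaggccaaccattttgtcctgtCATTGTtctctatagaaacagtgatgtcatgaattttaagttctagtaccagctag
Apobec4 (chr1:152750431-152750550, plus strand): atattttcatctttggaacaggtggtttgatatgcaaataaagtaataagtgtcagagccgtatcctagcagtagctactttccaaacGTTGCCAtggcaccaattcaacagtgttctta
Actrt1 (chrX:46328887-46329006, plus strand): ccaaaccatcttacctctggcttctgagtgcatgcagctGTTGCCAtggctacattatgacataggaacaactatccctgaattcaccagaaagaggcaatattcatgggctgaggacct
Izumo1 (chr7:45621691-45621810, plus strand): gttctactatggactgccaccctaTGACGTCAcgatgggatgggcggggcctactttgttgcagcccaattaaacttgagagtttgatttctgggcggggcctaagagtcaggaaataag
Spag6l (chr16:16829364-16829483, minus strand): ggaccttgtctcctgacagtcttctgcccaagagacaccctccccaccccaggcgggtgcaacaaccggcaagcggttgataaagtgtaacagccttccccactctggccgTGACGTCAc
In *Znrf4* the ACAATG and TGACGTCA matches share bases, *Hils1* holds 2 matches to ACAATG, *Acrv1* and *Akap4* hold 1 each, *Apobec4* and *Actrt1* hold GTTGCCA, and *Izumo1* and *Spag6l* hold TGACGTCA. A match is a run of letters and no evidence of binding.

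Round spermatid genes had the highest share of rises of the lists examined in the reported fit, followed closely by the acrosome. With DESeq2 size factors or a replicate block the acrosome list led, with 32 of 37 against 22 of 26. Of 26 round spermatid genes tested, 22 rose and the other 4 did not pass in the reported fit. This was 84.6% higher and 0% lower, against 12.9% and 7.15% of all genes, and the median log2 fold change was 3.58 against -0.02. In a bulk sample, more cells of a type and more RNA per cell cannot be told apart, here and in every group that follows. List counts in the fit of the 8 libraries alone, given below, stand against 1134 rises and 270 falls among 15501 genes in that fit. *Acrv1*, a protein of the acrosomal matrix (chr9:36693220-36698843, plus strand), was at 0.471, 0.316, 0.578 and 2.09 CPM in the day 20 libraries and at 27, 20.4, 22.9 and 19.8 CPM at day 22 (log2 fold change 4.64 with SE 0.717, adjusted p = 0.000305). The ages did not overlap, and WT_d20_4 was the highest day 20 library, without which the log2 fold change was 5.56 for *Acrv1*. *Tsga8*, an X-linked gene of haploid cells, rose from 3.44 ± 1.11 to 22.3 ± 5.14 CPM (log2 fold change 2.72, adjusted p = 0.000225). *Spaca1*, an acrosomal membrane protein needed for the shaping of the acrosome, rose from 2.46 ± 0.917 to 13 ± 1.83 CPM (2.40, adjusted p = 0.000776). The summed level of the list was 190.5, 144, 152 and 193 CPM in the day 20 libraries and 552, 392, 485 and 462 CPM in those of day 22, with no overlap. With any 1 of the 8 libraries left out, the number that rose was again 22.

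The later products of the spermatid were divided, with rises in 60% of the elongating spermatid list against 12.9% of all genes. Of 20 elongating spermatid genes 12 rose (median 3.53), among them *Akap4*, the main structural protein of the fibrous sheath, which was at 0.550, 0.842, 0.462 and 2.59 CPM at day 20 and 38, 18.4, 25.6 and 23.4 CPM at day 22 (log2 fold change 4.56 with SE 0.817, adjusted p = 0.000884), or 5.49 for *Akap4* on the log2 scale without WT_d20_4. *Klhl10*, a ubiquitin ligase adaptor of spermatids, rose from 1.92 ± 0.883 to 25.7 ± 6.88 CPM (3.72, adjusted p = 0.000314), and *Actl7b*, an actin-like protein, rose from 17.3 ± 8.46 to 67.4 ± 10.1 CPM (1.95, adjusted p = 0.000442). The genes for the proteins that condense the sperm nucleus had few counts at both ages. *Tnp1*, for the main transition protein, had 0, 0, 0 and 3 counts in the day 20 libraries, so that WT_d20_4 held all of them, and 16, 4, 13 and 7 at day 22, a ratio of levels of 11.3-fold (counting interval 3.61 to 57.2), and did not pass the test (adjusted p = 0.397). The protamine gene *Prm2* had 0, 0, 3 and 4 and then 9, 2, 8 and 11 counts (adjusted p = 0.656), and *Prm1* was at 0.250 ± 0.322 and 0.488 ± 0.433 CPM (adjusted p = 0.836). *Prm3*, a small acidic protein of the spermatid cytoplasm, went from 0, 0, 1 and 1 to 28, 9, 16 and 12 counts, a ratio of 27.6-fold (counting interval 7.34 to 233), and passed (adjusted p = 0.0199), a call that was lost without WT_d22_1 (4.10, adjusted p = 0.0617). Later their level was higher: *Prm1* had means of 40.7 and 665 CPM and *Tnp1* of 21.9 and 194 CPM at days 24 and 26 (n = 2 each).

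Genes of the acrosome, the vesicle of the sperm head that opens at fertilisation, rose over most of their list, which shares members with the round spermatid list. Of 37 tested, 31 rose and the other 6 did not pass (median 1.25), a share of 83.8% against 12.9% of all genes. They fell into genes already active at day 20 and genes close to silent. *Acr*, the protease acrosin, went from 44.2 ± 17.8 to 86.4 ± 15.9 CPM (0.96, adjusted p = 0.00944) and *Acrbp*, which holds proacrosin inactive, from 105 ± 43.5 to 189 ± 27.5 CPM (0.85, adjusted p = 0.0138). *Crisp2*, a cysteine-rich protein of the acrosome and tail, was already at 758 ± 154 CPM at day 20 and reached 1287 ± 77.6 CPM (0.76, adjusted p = 0.00193). At the other end, *Zp3r*, a zona pellucida receptor, rose from 0.661 ± 0.472 to 13.4 ± 1.85 CPM (4.30, adjusted p = 0.000266), *Spaca3* from 0.252 ± 0.366 to 6.61 ± 0.743 CPM (4.62, adjusted p = 0.000833) and *Spaca4* from 0.501 ± 0.452 to 5.26 ± 1.60 CPM (3.39, adjusted p = 0.00119). *Spaca5* had 1 count in all day 20 libraries and 25, 8, 30 and 17 counts at day 22, a ratio of 68.0-fold (counting interval 11.8 to 2717), and its day 20 count was in WT_d20_4. Log2 fold changes without that library were 4.97 for *Zp3r*, 6.33 for *Spaca3* and 4.33 for *Spaca4*. *Acr* (adjusted p = 0.0677) and *Acrbp* (adjusted p = 0.0985) did not pass in the fit of the 8 libraries alone.

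The proteins with which sperm bind and fuse to the egg were among the steepest rises. Of 9 genes tested, 7 rose and the other 2 did not pass (median 3.18), a share of 77.8% against 12.9% of all genes. *Izumo1*, the sperm ligand of the egg receptor JUNO (chr7:45621811-45628823, plus strand), was at 0.864, 0.526, 0.462 and 0.432 CPM at day 20 and at 5.35, 3.68, 4.54 and 3.43 CPM at day 22 (log2 fold change 2.89 with SE 0.562, adjusted p = 0.00144), with no overlap. Its relatives differed in their starting level: *Izumo2* rose from 0.0887 ± 0.106 to 1.42 ± 0.464 CPM (4.10, adjusted p = 0.0161), *Izumo3* from 0.270 ± 0.284 to 5.07 ± 1.44 CPM (4.21, adjusted p = 0.000813) and *Izumo4* from 19.6 ± 4.56 to 38.1 ± 4.15 CPM (0.96, adjusted p = 0.000135). *Dcst1*, another membrane protein needed for fusion, rose from 0.237 ± 0.264 to 6.41 ± 1.19 CPM (4.67, adjusted p = 0.000419). Of 14 testis kinase genes, 8 rose and the other 6 did not pass (median 0.95), a share of 57.1% against 12.9% of all genes. *Tssk1*, *Tssk2* and *Tssk3*, serine kinases of the spermatid, had log2 fold changes of 2.79, 4.08 and 3.35 (adjusted p = 0.000806, 0.00194 and 0.00106). Leaving out WT_d20_4 gave 5.24 for *Izumo3*, 5.60 for *Dcst1* and 5.13 for *Tssk2*, and leaving out WT_d20_2 gave 4.74 for *Izumo2*.

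Flagellum genes rose on several levels. Of a list of accessory tail proteins, which holds those of the outer dense fibres, the fibrous sheath and the mitochondrial sheath together with tektins, septins and others, 24 of 31 rose and the other 7 did not pass (median 1.10). The share that rose was 77.4%, against 12.9% of all genes. *Odf1*, the main outer dense fibre protein, rose from 0.841 ± 0.757 to 14.5 ± 4.23 CPM (4.08, adjusted p = 0.000627), and *Odf3* went from 0, 0, 0 and 2 counts to 59, 27, 58 and 50 counts, a ratio of 82.4-fold (counting interval 22.5 to 685), with the day 20 counts all in WT_d20_4. Without that library the log2 fold change was 4.91 for *Odf1*. *Odf2*, which also serves at the centriole, was high at day 20 (365 ± 127 CPM) and reached 627 ± 99.8 CPM (0.78, adjusted p = 0.0137), a call not made in the fit of the 8 libraries alone (adjusted p = 0.0835). *Tekt4*, a filament protein of the tail, rose from 23.8 ± 8.96 to 71.0 ± 8.66 CPM (1.57, adjusted p = 0.000135).

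Genes of the axoneme, the microtubule core of the tail, rose less uniformly, with 18 of 42 called higher and a median of 0.52. The share called higher was 42.9%, against 12.9% of all genes, and the number was 8 in a fit of the 8 libraries alone. *Foxj1*, the master regulator of motile cilia (chr11:116330704-116335399, minus strand), was at 2.91, 1.26, 1.62 and 6.55 CPM at day 20 and 38.7, 24.1, 36.9 and 29.7 CPM at day 22 (log2 fold change 3.37 with SE 0.454, adjusted p = 0.000132), a fold of 10.3 with no overlap. *Spag6l*, of the central pair of microtubules, rose from 1.51 ± 1.18 to 25.2 ± 6.67 CPM (4.03, adjusted p = 0.000132). The values without WT_d20_4 were 4.08 for *Foxj1* and 4.76 for *Spag6l*. The dynein heavy chains *Dnah8* (2274 ± 807 and 3315 ± 443 CPM, adjusted p = 0.0609) and *Dnah1* (258 ± 119 and 386 ± 67.4 CPM, adjusted p = 0.136) were well expressed at both ages and did not pass in edgeR. *Dnah8* passed in DESeq2 (adjusted p = 0.0318) and, in edgeR, without WT_d20_1 (0.75, adjusted p = 0.0151) or WT_d22_2 (0.63, adjusted p = 0.0462), and *Dnah1* without WT_d20_1 (0.85, adjusted p = 0.0362).

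The CatSper channel admits calcium into the sperm tail. Of 21 genes of CatSper and other sperm ion channels, 14 rose and the other 7 did not pass (median 0.74), a share of 66.7% against 12.9% of all genes. The count of rises was 7 in a fit of the 8 libraries alone. The pore subunits did not start from like levels. *Catsper1* (chr19:5335741-5344280, plus strand) was at 0.550, 0.105, 0.116 and 1.37 CPM at day 20 and at 17.3, 8.70, 15.1 and 11.2 CPM at day 22 (log2 fold change 4.57 with SE 0.814, adjusted p = 0.000832). *Catsper4* rose from 0.286 ± 0.296 to 6.68 ± 1.04 CPM (4.53, adjusted p = 0.000634), whereas *Catsper2* already stood at 48.9 ± 10.3 CPM and rose to 103 ± 10.4 CPM (1.07, adjusted p = 8.61e-05). *Catsper3* rose with a log2 fold change of 4.69, adjusted p = 0.000804, and of 7.26, adjusted p = 0.00063 without WT_d20_4, which held most of its day 20 counts. The same omission gave 5.67 for *Catsper1* and 5.65 for *Catsper4*. The accessory subunit *Efcab9*, a calcium sensor of the channel, rose from 0.619 ± 0.360 to 10.2 ± 1.94 CPM (4.03, adjusted p = 6.75e-05), and *Kcnu1*, the sperm potassium channel, from 4.61 ± 1.47 to 20.4 ± 2.96 CPM (2.15, adjusted p = 0.000228).

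Germ cells use isoforms of their own for several enzymes of glycolysis and of the mitochondrion. Of 18 genes of energy metabolism, mostly such isoforms and including transporters, 11 rose and the other 7 did not pass (median 0.61). The share that rose was 61.1%, against 12.9% of all genes, and the count of rises was 6 in a fit of the 8 libraries alone. The aldolases *Aldoart1* and *Aldoart2* were near silent at day 20 and rose from 0.722 ± 0.351 to 9.90 ± 2.51 and from 1.06 ± 0.394 to 13.7 ± 3.83 CPM (3.77, adjusted p = 0.000229, and 3.67, adjusted p = 0.000214). *Pgk2*, the phosphoglycerate kinase that replaces the X-linked *Pgk1*, rose from 82.1 ± 19.7 to 193 ± 19.4 CPM (1.23, adjusted p = 0.000134). The lactate dehydrogenases *Ldhc* and *Ldhal6b*, abundant at both ages, rose from 1068 ± 197 to 1471 ± 178 CPM (0.46, adjusted p = 0.0407, a call lost without WT_d20_3, WT_d22_1 or WT_d22_4, adjusted p = 0.0809 to 0.0982) and from 405 ± 97.1 to 606 ± 30.2 CPM (0.58, adjusted p = 0.0134). *Ldhc* (adjusted p = 0.133) and *Ldhal6b* (adjusted p = 0.071) did not pass in the fit of the 8 libraries alone. The 7 members that did not pass with all libraries were the pyruvate dehydrogenase subunit *Pdha2* (0.21, adjusted p = 0.392), the cytochrome *Cyct* (0.26, adjusted p = 0.35), the cytochrome oxidase subunits *Cox6b2* (0.16, adjusted p = 0.513), *Cox7b2* (0.51, adjusted p = 0.189) and *Cox8c* (0.04, adjusted p = 0.931), the ADP/ATP carrier *Slc25a31* (-0.10, adjusted p = 0.76) and the glucose transporter *Slc2a3* (0.53, adjusted p = 0.0595). Of these, *Pdha2* (0.42, adjusted p = 0.03), *Cyct* (0.49, adjusted p = 0.0311), *Cox7b2* (0.83, adjusted p = 0.0231) and *Cox8c* (0.48, adjusted p = 0.031) passed without WT_d20_2, and *Slc2a3* passed in DESeq2 (adjusted p = 0.0321) and without WT_d20_1 (0.74, adjusted p = 0.0143). Many of these isoforms are intronless copies or close relatives of other genes, and read pairs with several alignments were not counted.

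Regulators of transcription in spermatids came next. Of 19 tested, 11 rose and 1 fell, or 57.9% and 5.26% against 12.9% and 7.15% of all genes (median 0.49). The count of rises was 7 without WT_d22_1 or WT_d22_4 and 5 in a fit of the 8 libraries alone. *Crem*, the activator of many haploid genes (chr18:3266048-3337748, minus strand), was at 100, 151, 87.9 and 104 CPM at day 20 and at 182, 159.6, 168 and 152 CPM at day 22 (log2 fold change 0.58 with SE 0.150, adjusted p = 0.00974). This was a fold of 1.49, from a high base. *Tbpl1*, a relative of the TATA-binding protein, rose from 198 ± 47.6 to 278 ± 20.9 CPM (0.49, adjusted p = 0.0487, lost without any 1 of 5 libraries, adjusted p = 0.058 to 0.125), and *Papolb*, a cytoplasmic poly(A) polymerase of the testis, from 198 ± 38.8 to 400 ± 31.2 CPM (1.02, adjusted p = 8.61e-05). *Spz1*, a basic helix-loop-helix protein, rose from 1.77 ± 0.691 to 23.6 ± 8.88 CPM (3.70, adjusted p = 0.000643) and *Kif17*, a kinesin that carries a cofactor of CREM, from 2.94 ± 1.01 to 20.8 ± 6.78 CPM (2.81, adjusted p = 0.000804). That cofactor, *Fhl5*, was at 0.808 ± 0.228 and 2.89 ± 1.03 CPM and did not pass (adjusted p = 0.0675 in edgeR, and 0.0122 in DESeq2), while it passed in the fit of the 8 libraries alone (adjusted p = 0.00459). Its relative *Fhl4*, among the most abundant genes that rose, went from 1215 ± 293 to 1878 ± 215 CPM (0.63, adjusted p = 0.0147). *Taf7l*, a testis form of a TFIID subunit, fell from 84.5 ± 11.6 to 59.4 ± 6.21 CPM (-0.51, adjusted p = 0.0205), a call lost without WT_d22_1 (-0.42, adjusted p = 0.0825). *Crem* (adjusted p = 0.0704), *Tbpl1* (adjusted p = 0.121) and *Fhl4* (adjusted p = 0.074) did not pass in the fit of the 8 libraries alone.

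**Figure D3:**
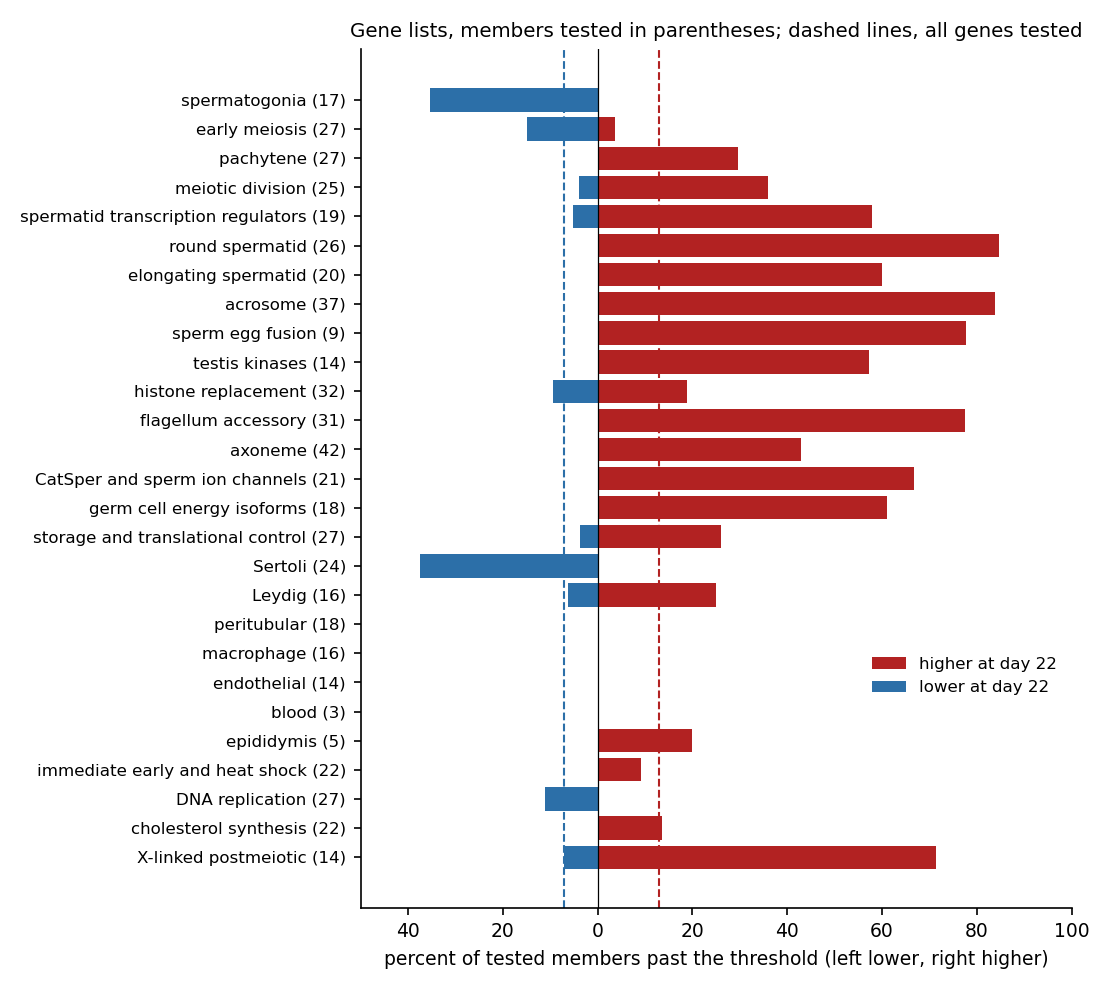
Percent of the tested members of each list called higher (bars to the right) or lower (bars to the left) at WT day 22 against day 20 (edgeR, adjusted p under 0.05), with dashed lines for the same shares of all 17170 genes tested (12.9% and 7.15%). The round spermatid list had 22 of 26 members called higher, while the Sertoli list had 9 of 24 and the spermatogonia list 6 of 17 members called lower.

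Genes of the pachytene stage, the long phase of meiotic prophase, and of the divisions that end meiosis rose in part. Of 27 pachytene genes 8 rose and the other 19 did not pass (median 0.22), a share of 29.6% against 12.9% of all genes. The count of rises was 13 without WT_d20_1 and 3 in a fit of the 8 libraries alone, and 2 fell without WT_d20_3. *Hspa2*, the chaperone of the synaptonemal complex, was at 636 ± 257 and 944 ± 92.0 CPM and did not pass in edgeR (adjusted p = 0.0719), but passed in DESeq2 (adjusted p = 0.0444) and in edgeR without WT_d20_1 (0.76, adjusted p = 0.0263). Of 25 division genes 9 rose and 1 fell, or 36% and 4% against 12.9% and 7.15% of all genes (median 0.42). The count of rises was 4 in a fit of the 8 libraries alone, and 2 fell without WT_d20_3. *Ccna1*, the cyclin required for entry into the first division (chr3:55045469-55055501, minus strand), was at 58.9, 29.6, 37 and 53.8 CPM at day 20 and at 137, 105, 112 and 114 CPM at day 22 (log2 fold change 1.38 with SE 0.163, adjusted p = 4.34e-05). *Plk1*, the polo kinase of the division, rose from 22.0 ± 9.24 to 68.5 ± 7.62 CPM (1.63, adjusted p = 0.000119). Both groups of 4 stood clear of each other. Smaller rises were found for *Ccnb1* (0.59, adjusted p = 0.0133), *Ccnb2* (0.51, adjusted p = 0.00969) and the phosphatase *Cdc25a* (0.59, adjusted p = 0.00103). *Ccnb3*, a cyclin of early prophase on the X chromosome, fell from 71.7 ± 26.8 to 42.7 ± 4.37 CPM (-0.74, adjusted p = 0.0111), and by less without WT_d20_2 (-0.46, adjusted p = 0.0303). *Ccnb1* (adjusted p = 0.112), *Ccnb2* (adjusted p = 0.0629) and *Ccnb3* (adjusted p = 0.0612) did not pass in the fit of the 8 libraries alone.

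Spermatids keep mRNA in storage before it is translated. Of the proteins that do so, 7 of 27 genes rose and 1 fell, or 25.9% and 3.70% against 12.9% and 7.15% of all genes (median 0.08), a count of rises that was 3 in a fit of the 8 libraries alone. *Pabpc2*, a retrogene copy of the poly(A)-binding protein, rose from 374 ± 81.5 to 679.6 ± 59.3 CPM (0.86, adjusted p = 0.000234). *Pabpc1*, among the most abundant genes that rose, was at 2478, 1127, 2300 and 1884 CPM at day 20 and at 3013, 2562, 3053 and 3117 CPM at day 22 (log2 fold change 0.59 with SE 0.175, adjusted p = 0.0209), with a smaller value without WT_d20_2 (0.39, adjusted p = 0.0409) and with the call lost without WT_d22_4 (adjusted p = 0.0555). As the 2 genes are near copies, reads that fit both were not counted. The Y-box protein *Ybx3* rose (0.66, adjusted p = 0.0415), a call that was lost without WT_d20_2 (0.41, adjusted p = 0.0678) or any 1 of 4 other libraries (adjusted p = 0.0678 to 0.0977 over these 5), and its relative *Ybx2* did not pass (520 ± 228 and 794 ± 137 CPM, adjusted p = 0.0921) except without WT_d20_1 (0.80, adjusted p = 0.0437). *Cpeb1*, which binds the polyadenylation element of stored mRNA, fell from 31.6 ± 4.46 to 23.8 ± 2.83 CPM (-0.41, adjusted p = 0.027), and this call was lost without WT_d20_1, WT_d20_4, WT_d22_1 or WT_d22_4 (adjusted p = 0.054 to 0.137). *Pabpc1* (adjusted p = 0.135), *Ybx3* (adjusted p = 0.178) and *Cpeb1* (adjusted p = 0.102) did not pass in the fit of the 8 libraries alone.

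The replacement of histones is one of the processes that the study followed. Of 32 genes of this list 6 rose and 3 fell, or 18.8% and 9.38% against 12.9% and 7.15% of all genes tested (median 0.16), and in the fit of the 8 libraries alone 4 rose and 0 fell. *Hils1*, a linker histone of spermatids (chr11:94967593-94968456, plus strand), was at 0.0786, 0.105, 0.347 and 1.15 CPM at day 20 and at 9.86, 5.18, 6.93 and 5.93 CPM at day 22 (log2 fold change 3.94 with SE 0.884, adjusted p = 0.00434), and its log2 fold change was 5.09 for *Hils1* without WT_d20_4. *Nutm1*, the partner of the p300 acetyltransferase in spermatids, rose from 6.04 ± 1.30 to 22.8 ± 4.82 CPM (1.91, adjusted p = 0.000204), and *Psme4*, the proteasome activator that handles acetylated histones, from 364 ± 29.5 to 529.9 ± 44.2 CPM (0.54, adjusted p = 0.00114). *H1fnt*, another spermatid linker histone, had no count at day 20 and 21, 7, 12 and 14 counts at day 22, at least 15.3-fold higher against a floor of 3 counts over the 4 libraries, and did not pass in edgeR (adjusted p = 0.0715) but passed in DESeq2 (adjusted p = 7.13e-05). Not all 6 rises are described here, and the largest log2 fold change among them was 7.13. There were 3 falls, each of less than 2-fold: the ubiquitin ligase *Rnf8* (-0.70, adjusted p = 0.01), the H3.3 remodeller *Atrx* (-0.66, adjusted p = 0.00973) and the FACT subunit *Supt16* (-0.37, adjusted p = 0.0201). *Atrx* was at 172, 326, 171 and 189 CPM in the day 20 libraries, highest in WT_d20_2, and its log2 fold change was -0.39, adjusted p = 0.0201 without that library. The *Supt16* call was lost without WT_d20_1, WT_d22_1 or WT_d22_3 (adjusted p = 0.0636 to 0.071), and none of the 3 passed in the fit of the 8 libraries alone. The histone variants laid down in spermatocytes did not pass: *Hist1h1t* was at 512, 2011, 407 and 654 CPM at day 20 and 647, 790.5, 442 and 423 CPM at day 22, and its log2 fold change of -0.64 turned to 0.13, adjusted p = 0.803 without WT_d20_2. The value for *Hist1h2ba* turned from -0.37 to 0.31, adjusted p = 0.465 in the same way. *Atad2*, disrupted in the KO animals of the study, was at 92.7, 171, 76.4 and 94.0 CPM at day 20 and 93.2, 91.8, 78.2 and 76.1 CPM at day 22 in WT (log2 fold change -0.35 with SE 0.178, adjusted p = 0.169). The 171 CPM was in WT_d20_2, and the other day 20 libraries, at 76.4 to 94.0 CPM, lay close to the day 22 range of 76.1 to 93.2 CPM. *Hira*, the H3.3 chaperone that the study relates to *Atad2*, was at 27.9 ± 4.19 and 25.2 ± 3.46 CPM (log2 fold change -0.15 with SE 0.123, adjusted p = 0.428). Neither passed the threshold.

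The falls were led by genes of low or moderate level. *Trim12a*, a tripartite motif protein (chr7:104299894-104315466, minus strand), had the largest fall among genes with a mean of at least 5 CPM at day 20 and no overlap between ages. Its level was 7.62, 12, 10.1 and 10.5 CPM at day 20 and 4.79, 5.18, 3.84 and 3.32 CPM at day 22 (log2 fold change -1.24 with SE 0.180, adjusted p = 0.000136), with no overlap. *Erbb4*, a receptor of neuregulins, fell from 5.30 ± 1.05 to 2.33 ± 0.716 CPM (-1.16, adjusted p = 0.0041), and *Rad21l*, the kleisin of the cohesin of early prophase, from 17.9 ± 7.91 to 8.34 ± 0.376 CPM (-1.09, adjusted p = 0.0063). *Morc1*, a silencer of transposons in the male germ line, fell from 27.5 ± 11.7 to 14.7 ± 1.76 CPM (-0.90, adjusted p = 0.00555), and by less without WT_d20_2 (-0.59, adjusted p = 0.0131). *H2-Q10*, a secreted class I histocompatibility protein with close relatives in the genome, fell from 5.49 ± 1.07 to 2.34 ± 0.695 CPM (-1.23, adjusted p = 0.0414), a call lost without any 1 of 7 of the 8 libraries (adjusted p = 0.0506 to 0.139). *Tnni3*, a troponin subunit, fell (-0.95, adjusted p = 0.028) from 47.1, 111, 45.1 and 47.3 CPM in the day 20 libraries. WT_d20_2 held the high value, and without it the gene did not pass (-0.54, adjusted p = 0.128). The call was also lost without WT_d22_1, WT_d22_3 or WT_d22_4 (adjusted p = 0.0538, 0.0638 and 0.0722). Among abundant genes that fell were *Macf1*, a linker of the cytoskeleton, from 921 ± 126 to 693 ± 44.4 CPM (-0.41, adjusted p = 0.00614), *Huwe1*, a ubiquitin ligase, from 661 ± 37.5 to 488 ± 23.1 CPM (-0.44, adjusted p = 0.00155), and the deubiquitinase *Usp9x*, from 740.5 ± 323 to 474 ± 26.9 CPM (-0.64, adjusted p = 0.0201). *Usp9x* did not pass without WT_d20_2 (-0.31, adjusted p = 0.0591) or without WT_d22_1 (-0.58, adjusted p = 0.0699). *Tnni3* (adjusted p = 0.0556), *Macf1* (adjusted p = 0.0954) and *Usp9x* (adjusted p = 0.129) did not pass in the fit of the 8 libraries alone.

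Spermatogonial genes fell where they moved. Of 17 tested, 6 fell and the other 11 did not pass (median -0.38), a share of falls of 35.3% against 7.15% of all genes. The count of falls was 2 without WT_d22_1, 3 without WT_d20_3 and 2 in a fit of the 8 libraries alone. Falls over all genes also went down, from 1227 to 504 without WT_d22_1 and to 270 in the fit of the 8 libraries alone. *Stra8*, the gatekeeper of meiosis induced by retinoic acid (chr6:34920163-34939344, plus strand), was at 32.7, 45.1, 31.2 and 32.8 CPM at day 20 and at 18.1, 18.2, 21.6 and 18.4 CPM at day 22 (log2 fold change -0.89 with SE 0.205, adjusted p = 0.0043). Every day 20 library lay above every day 22 library, and WT_d20_2 was the highest. *Kit*, the receptor of differentiating spermatogonia, fell from 91.8 ± 13.9 to 61.5 ± 12.1 CPM (-0.58, adjusted p = 0.00905). *Sohlh1*, a transcription factor of the same cells, fell (-0.55, adjusted p = 0.0143), as did *Nanos3* (-1.16, adjusted p = 0.0493), *Uchl1* (-0.46, adjusted p = 0.0289) and *Dnmt3b* (-0.52, adjusted p = 0.0182). The last 4 calls were each lost without at least 1 library, for *Sohlh1* without WT_d20_1, WT_d22_1 or WT_d22_4 (adjusted p = 0.05001 to 0.0821), for *Nanos3* without WT_d20_1, WT_d20_2, WT_d20_3, WT_d22_1, WT_d22_2, WT_d22_3 or WT_d22_4 (adjusted p = 0.0624 to 0.133), for *Uchl1* without WT_d20_3, WT_d20_4, WT_d22_1 or WT_d22_2 (adjusted p = 0.0731 to 0.134) and for *Dnmt3b* without WT_d20_3, WT_d20_4 or WT_d22_1 (adjusted p = 0.051 to 0.104). *Nanos3* lay at about 1.10 CPM and also missed the threshold in DESeq2. *Kit* (adjusted p = 0.0565), *Sohlh1* (adjusted p = 0.0919), *Uchl1* (adjusted p = 0.107) and *Dnmt3b* (adjusted p = 0.0741) did not pass in the fit of the 8 libraries alone. *Nanos3* and *Uchl1* are known from undifferentiated spermatogonia, as are, among others, the first 3 genes of the list, which did not pass with all libraries: *Zbtb16* was at 26.4 ± 7.5 and 22.2 ± 1.86 CPM (-0.25, adjusted p = 0.285) and passed without WT_d20_2 (-0.43, adjusted p = 0.0271), *Gfra1* at 4.82 ± 0.992 and 4.99 ± 0.421 CPM (adjusted p = 0.86) and *Id4* at 32.8 ± 7.10 and 36.4 ± 1.21 CPM (adjusted p = 0.502).

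Genes of early meiotic prophase gave 4 falls and 1 rise among 27, where 14.8% fell against 7.15% of all genes (median -0.24). The number that fell was 1 without WT_d22_3, 2 without WT_d20_2, WT_d22_1 or WT_d22_4, 7 without WT_d20_3 and 2 in a fit of the 8 libraries alone. *Prdm9*, the methyltransferase that places recombination hotspots (chr17:15543079-15564354, minus strand), was at 25.4, 24.0, 21.9 and 17.3 CPM at day 20 and at 12.2, 12.1, 13.9 and 13.4 CPM at day 22 (log2 fold change -0.77 with SE 0.179, adjusted p = 0.00445), and passed with any 1 of the 8 libraries left out. *Dmc1*, the meiotic recombinase, fell from 37.5 ± 5.14 to 25.7 ± 2.81 CPM (-0.54, adjusted p = 0.028). *Syce2*, of the central element of the synaptonemal complex, and *Hormad2*, of the chromosome axis, fell (-0.46, adjusted p = 0.0263, and -0.57, adjusted p = 0.0321) but missed the threshold without WT_d20_2 (-0.30, adjusted p = 0.0661, and -0.29, adjusted p = 0.122), which held the highest level of both. *Rec8*, the meiotic cohesin kleisin, rose from 10.3 ± 2.42 to 16.6 ± 4.60 CPM (0.68, adjusted p = 0.0441), with 1 day 22 library inside the day 20 range. Calls were lost for *Dmc1* without WT_d20_1, WT_d22_1, WT_d22_2 or WT_d22_3 (adjusted p = 0.0524 to 0.106), for *Hormad2* without WT_d20_2, WT_d22_1, WT_d22_3 or WT_d22_4 (adjusted p = 0.0725 to 0.122), for *Syce2* without WT_d20_2, WT_d22_3 or WT_d22_4 (adjusted p = 0.0661 to 0.0805) and for *Rec8* without WT_d20_2, WT_d20_3, WT_d20_4, WT_d22_1, WT_d22_3 or WT_d22_4 (adjusted p = 0.063 to 0.127). *Hormad2* (adjusted p = 0.135), *Syce2* (adjusted p = 0.101) and *Rec8* (adjusted p = 0.106) did not pass in the fit of the 8 libraries alone. *Sycp3*, of the lateral element, was at 289 ± 20.8 and 281 ± 29.6 CPM (adjusted p = 0.888). The summed level of the list was 5667, 10150, 4908 and 5650 CPM at day 20, where WT_d20_2 was the high library, and 5574, 6051, 5478 and 5330 CPM at day 22.

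Replication genes, active in dividing spermatogonia and at the last S phase before meiosis, gave 3 falls among 27, or 11.1% against 7.15% of all genes (median -0.12). *Pole*, the catalytic subunit of polymerase epsilon, fell from 135 ± 12.2 to 95.4 ± 4.52 CPM (-0.50, adjusted p = 0.00177) and passed with any 1 of the 8 libraries left out. The helicase subunits *Mcm2* and *Mcm4* fell (-0.39, adjusted p = 0.0147, and -0.35, adjusted p = 0.0207) and were lost for *Mcm2* without WT_d20_4, WT_d22_1 or WT_d22_3 (adjusted p = 0.056 to 0.0961) and for *Mcm4* without WT_d20_4, WT_d22_1 or WT_d22_4 (adjusted p = 0.0567 to 0.0814). The number that fell was 1 without WT_d20_4 or WT_d22_1, 5 without WT_d20_2 and 1 in a fit of the 8 libraries alone, and 2 rose without WT_d20_2. *Mcm2* (adjusted p = 0.078) and *Mcm4* (adjusted p = 0.0942) did not pass in the fit of the 8 libraries alone.

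Sertoli cells nurse the germ cells within the tubule and do not divide at these ages. Of 24 of their genes 9 fell and the other 15 did not pass (median -0.36), a share of falls of 37.5% against 7.15% of all genes. The count of falls was 3 without WT_d22_1, 4 without WT_d22_3 or WT_d22_4, 5 without WT_d20_4 or WT_d22_2 and 3 in a fit of the 8 libraries alone. Falls over all genes also went down, from 1227 to 504 without WT_d22_1 and to 270 in the fit of the 8 libraries alone. *Clu*, for the secreted chaperone clusterin (chr14:65968483-65981547, plus strand), was at 1493, 1157, 1705 and 1370 CPM at day 20 and at 872, 913, 1115 and 917 CPM at day 22 (log2 fold change -0.59 with SE 0.151, adjusted p = 0.00944), and did not pass without WT_d22_1 (-0.52, adjusted p = 0.0524). *Shbg*, for androgen-binding protein, fell from 48 ± 8.54 to 25.9 ± 1.60 CPM (-0.89, adjusted p = 0.000717), *Mro* from 72.7 ± 7.73 to 48.4 ± 2.61 CPM (-0.59, adjusted p = 0.00249) and *Ctsl*, for cathepsin L, from 392 ± 33.9 to 296 ± 6.04 CPM (-0.40, adjusted p = 0.00332). *Wt1*, which maintains the cell's identity, was at 104 ± 13.3 and 81.3 ± 7.38 CPM (-0.36, adjusted p = 0.0421), a call lost without any 1 library except WT_d20_2 (adjusted p = 0.0556 to 0.195). *Ctsl* (adjusted p = 0.0655) and *Wt1* (adjusted p = 0.117) did not pass in the fit of the 8 libraries alone. *Sox9* (92.8 ± 11.8 and 72.8 ± 10.4 CPM, adjusted p = 0.0643) and *Amh*, a mark of the immature cell (5.85 ± 2.34 and 6.89 ± 0.547 CPM, adjusted p = 0.55), did not pass. The summed level of the list was 3575, 3124, 3997 and 3476 CPM at day 20 and 2469, 2610, 2918 and 2614 CPM at day 22.

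Leydig cells make testosterone, and 4 of 16 of their genes rose while 1 fell (median 0.31). The share that rose was 25%, against 12.9% of all genes. The 4 act in steroid synthesis, as do enzymes of the list that did not pass: *Hsd17b3*, which makes testosterone (-0.33, adjusted p = 0.527), *Hsd3b6* (0.29, adjusted p = 0.593), *Srd5a1* (0.17, adjusted p = 0.74) and *Akr1c14* (-0.08, adjusted p = 0.872). *Cyp11a1*, the side-chain cleavage enzyme that starts this synthesis (chr9:58006411-58027023, plus strand), was at 47.3, 46.1, 50.5 and 52.8 CPM at day 20 and at 137, 139, 127 and 132 CPM at day 22 (log2 fold change 1.44 with SE 0.385, adjusted p = 0.0132). *Star*, which brings cholesterol into the mitochondrion, was at 42.4, 31.3, 33.5 and 32.7 CPM at day 20 and 52.8, 49.6, 230.2 and 72.5 CPM at day 22 (log2 fold change 1.54 with SE 0.427, adjusted p = 0.0165). The ages did not overlap in *Star*, but WT_d22_3 was far above its group and without it the gene did not pass (0.77, adjusted p = 0.0892). *Cyp17a1*, which leads on to androgens, rose from 52.7 ± 16.3 to 169 ± 44.1 CPM (1.68, adjusted p = 0.0197), a call lost without WT_d20_4 or WT_d22_1 (adjusted p = 0.0563 to 0.0623), and *Fdx1*, the electron carrier for these enzymes, from 47.1 ± 8.36 to 91.3 ± 24.4 CPM (0.96, adjusted p = 0.00183). *Hsd3b1* was at 149 ± 42.1 and 210.4 ± 14.1 CPM (0.50, adjusted p = 0.0791) and passed without WT_d20_2 (0.65, adjusted p = 0.0253). *Thbs2*, a matrix protein, fell from 23.8 ± 7.81 to 13 ± 1.69 CPM (-0.88, adjusted p = 0.0114), and not without WT_d20_3 (-0.64, adjusted p = 0.0541). Of 22 genes of cholesterol synthesis 3 rose and the other 19 did not pass (median 0.10), a share of 13.6% against 12.9% of all genes. The 3 that rose were *Fdft1* (0.69, adjusted p = 0.000679), *Sqle* (0.48, adjusted p = 0.00537) and *Tm7sf2* (0.77, adjusted p = 0.0225), the last not without WT_d22_1 or WT_d22_2 (adjusted p = 0.0568 to 0.0698). Without WT_d20_2, 5 of the list rose. *Star* (adjusted p = 0.0558) and *Sqle* (adjusted p = 0.0589) did not pass in the fit of the 8 libraries alone.

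No gene of the peritubular (18), macrophage (16), endothelial (14) or blood (3) lists changed in edgeR. At an unadjusted p under 0.05 these lists held 2, 0, 4 and 0 genes, DESeq2 called 0 in each, and *Pdgfra*, a growth factor receptor of peritubular cells, fell in edgeR without WT_d20_1 (-0.62, adjusted p = 0.0323) and was at -0.50 with it (adjusted p = 0.0918). A further list set libraries apart within their age. Genes known from the epididymis summed to 3.38, 2.95, 279.6 and 6.55 CPM in the day 20 libraries and 3.17, 6.44, 20.6 and 537 CPM at day 22, so that WT_d20_3 and WT_d22_4 stood far above the rest. Most of this was *Crisp1*, a protein secreted by the epididymis, at 0, 0, 271 and 1.87 CPM at day 20 and 0, 0, 13.4 and 520 CPM at day 22 (adjusted p = 0.841). *Adam7* was highest in the same 2 libraries. Among 5 tested genes of this list only *Rnase10* rose, from 2.43 ± 1.01 to 5.0 ± 1.51 CPM (1.04, adjusted p = 0.0261), and without any 1 of 5 libraries (adjusted p = 0.053 to 0.0775) or in the fit of the 8 libraries alone (adjusted p = 0.0751) it did not pass. The part of such tissue in other results was not tested. Of 22 immediate early and heat shock genes, which respond to handling and stress, 2 rose (9.09%, against 12.9% of all genes): *Egr3* from 0.577 ± 0.270 to 2.16 ± 0.394 CPM (1.83, adjusted p = 0.0107) and the co-chaperone *Dnajb1* from 135 ± 33 to 215 ± 14.3 CPM (0.67, adjusted p = 0.00181). The summed level of the list was 357, 222, 384 and 365 CPM at day 20 and 408, 537, 467 and 428 CPM at day 22, with no overlap and with WT_d20_2 lowest. *Fos* was at 1.42, 1.47, 2.14 and 1.37 CPM at day 20 and 1.97, 12.5, 2.10 and 1.18 CPM at day 22, raised in WT_d22_2 alone (adjusted p = 0.224).

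The X chromosome is silenced during meiotic prophase, and some of its genes return after meiosis. Of 729 X-linked genes tested, 153 fell (21%) and 95 rose (13%), with a median log2 fold change of -0.27. On the autosomes 4.53% to 7.81% of genes fell. WT_d20_2 carried part of this: the summed level of X genes was 29600 CPM there, 19140 to 20630 CPM in the other day 20 libraries and 16480 to 17570 CPM at day 22. Without it, 119 X genes fell (16.4%) and the median was -0.16, while 6.16% to 9.56% of autosomal genes fell. A list of X-linked genes known from haploid cells went the other way, with 10 rises and 1 fall of 14 (median 3.55). These were 71.4% and 7.14%, against 12.9% and 7.15% of all genes. Besides *Akap4* and *Tsga8*, described above, *Cylc1*, of the perinuclear cytoskeleton of the sperm head, rose from 0.260 ± 0.453 to 6.63 ± 1.78 CPM (4.61, adjusted p = 0.000922; 7.64, adjusted p = 0.000462 without WT_d20_4). *Actrt1*, an actin relative of the same structure, rose from 0.0836 ± 0.0659 to 1.39 ± 0.760 CPM (4.06, adjusted p = 0.000948). *Tex16* fell from 90.5 ± 41.4 to 55.4 ± 1.61 CPM (-0.70, adjusted p = 0.0259), with WT_d20_2 at 152 CPM and no call without it (-0.34, adjusted p = 0.108), without any 1 day 22 library (adjusted p = 0.0521 to 0.108 over these 5) or in the fit of the 8 libraries alone (adjusted p = 0.102).

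The genes that rose differed in build from the rest, as a description over genes. Coding genes with a single exon were 2.90% of coding genes tested, 6.18% of those that rose, 13.6% of those that rose at least 16-fold and 0.594% of those that fell. Long noncoding genes were 6.40% of all tested, 11.1% of the rises, 20.0% of the rises of at least 16-fold and 3.18% of the falls. Genes that carry a clone name from the testis libraries of the RIKEN collection were 4.53% of all tested, 15% of the rises and 0.489% of the falls. The median exonic length was 4.25 kb over all genes, 3.16 kb for rises, 1.52 kb for rises of at least 16-fold and 6.02 kb for falls.

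Promoters were compared over 13559 tested genes with a RefSeq window of 250 bases before to 50 after the start site, of which 1769 had risen, 552 by at least 4-fold, 238 by at least 16-fold, and 994 had fallen. ACAATG was found on either strand in 8.70% of all windows, in 13.2% of those of genes that rose, in 22.5% at 4-fold or more, in 29% at 16-fold or more and in 7.95% of those of genes that fell. GTTGCCA was found in 4.60% of all windows, 10.6% for rises, 13.6% and 10.9% for the larger rises and 2.31% for falls. TAACNG, the core recognised by MYB factors such as MYBL1, was found in 20.1% of all, 27.8% of rises, 31.5% and 32.8% of the larger rises and 15.1% of falls. TGACGTCA did not follow this order, with 2.97% of all windows, 2.83% for rises, 2.17% and 2.52% for the larger rises and 2.92% for falls. Its shorter form TGACGT, which it contains, was less frequent among the larger rises, with 10.7% of all windows, 8.59% for rises, 5.62% at 4-fold or more, 5.04% at 16-fold or more and 10.8% for falls. Base composition moved along with these shares: the median GC content of the 250 bases was 58.4% over all, 54.4% for rises, 46% for rises of at least 16-fold and 61.0% for falls. Its part in the motif shares was not tested. In a shorter window of 150 bases before the start, ACAATG was in 4.31% of all and 7.01% of rises, and GTTGCCA in 2.66% and 6.39%.

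**Figure D4:**
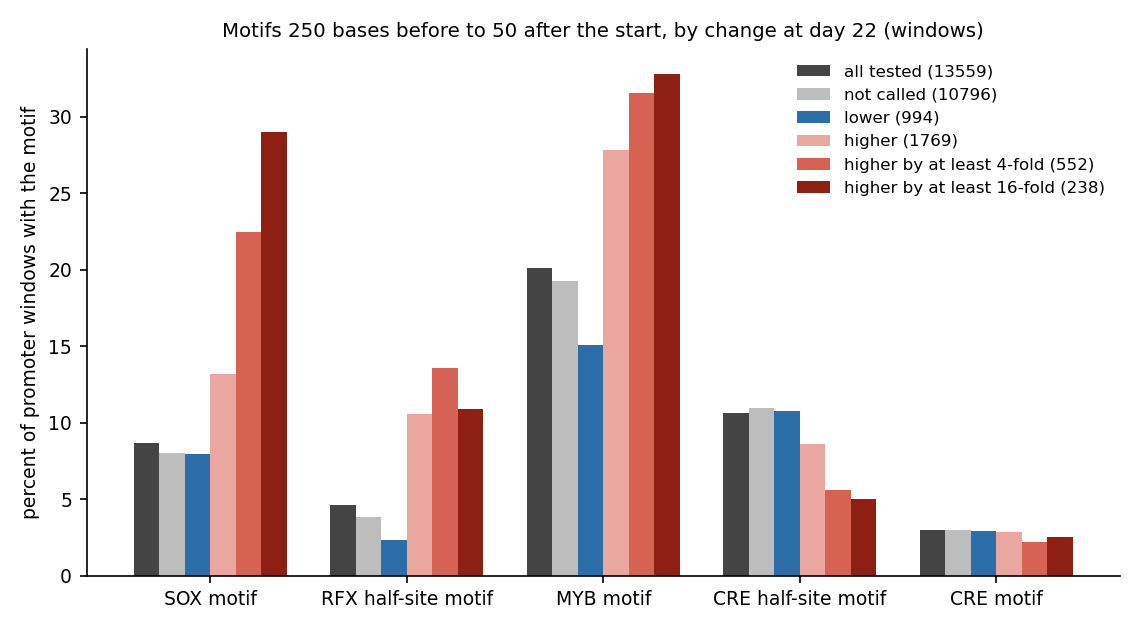
Share of promoter windows (percent) that hold each of the 5 motifs, for all tested genes with a window (13559), genes that rose, genes that rose by at least 4-fold or 16-fold, and genes that fell. ACAATG goes from 8.70% of all windows to 29% at 16-fold or more, while TGACGTCA stays between 2.17% and 2.97%.

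The same interval was then read in KO testis. Between day 20 and day 22, 1821 genes changed in KO, 1266 higher and 555 lower. Of the WT rises 897 were also called in KO (40.6% of the WT calls and 70.9% of the KO calls), of the falls 147 (12% and 26.5%), and 0 genes were called in opposite directions. Of all genes tested, 7.37% rose and 3.23% fell in KO, against 12.9% and 7.15% in WT. The change itself differed between genotypes for 1 gene of 17170 (0.00582%), while 1441 genes had an unadjusted p under 0.05 and DESeq2 called 85. *Gm6408*, a predicted gene (chr5:146481965-146484704, plus strand), went from 0.276 ± 0.161 to 3.06 ± 0.562 CPM in WT (log2 fold change 3.40 with SE 0.314, adjusted p = 4.31e-06) and from 1.80 to 3.21 CPM in KO (0.83, adjusted p = 0.0343), a difference of -2.57 on the log2 scale (SE 0.404, adjusted p = 0.045). *Speer4b*, of a multicopy family expressed in spermatids, went from 0.529 ± 0.325 to 5.79 ± 1.60 CPM in WT and from 4.15 to 6.64 CPM in KO, a difference that did not pass (-2.79, adjusted p = 0.0816). Both belong to repeated families, for which pairs with several alignments were left out. The number of genes whose change differed was 77 without KO_d20_2, 23 without WT_d20_4, 6 without KO_d22_1, 6 without KO_d22_2 and 3 without KO_d20_1, 1 without WT_d22_4, and 0 without any other library.

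The levels at day 22 were an early part of a longer course. The round spermatid list summed to 144 to 193 CPM at day 20, 392 to 552 at day 22, 976 to 1236 at day 24 and 1894 to 1918 at day 26 in WT. In KO it summed to 210.4 to 424, 474 to 1117, 1105 to 1206 and 2025 to 2130 CPM, so that every KO library of day 20 lay above every WT library of that day, a difference that was not tested here. The elongating spermatid list went from 100.4 to 154 and 291 to 476 CPM to 1203 to 1497 and 3712 to 4906 CPM in WT. The Sertoli list summed to 3124 to 3997 and 2469 to 2918 CPM, then to 2416 to 2515 and 2120 to 2403 CPM. *Acrv1* had means of 98.9 and 164 CPM and *Catsper1* of 55.8 and 95.2 CPM at days 24 and 26. The later days have 2 libraries each and were not tested here.

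**Figure D5:**
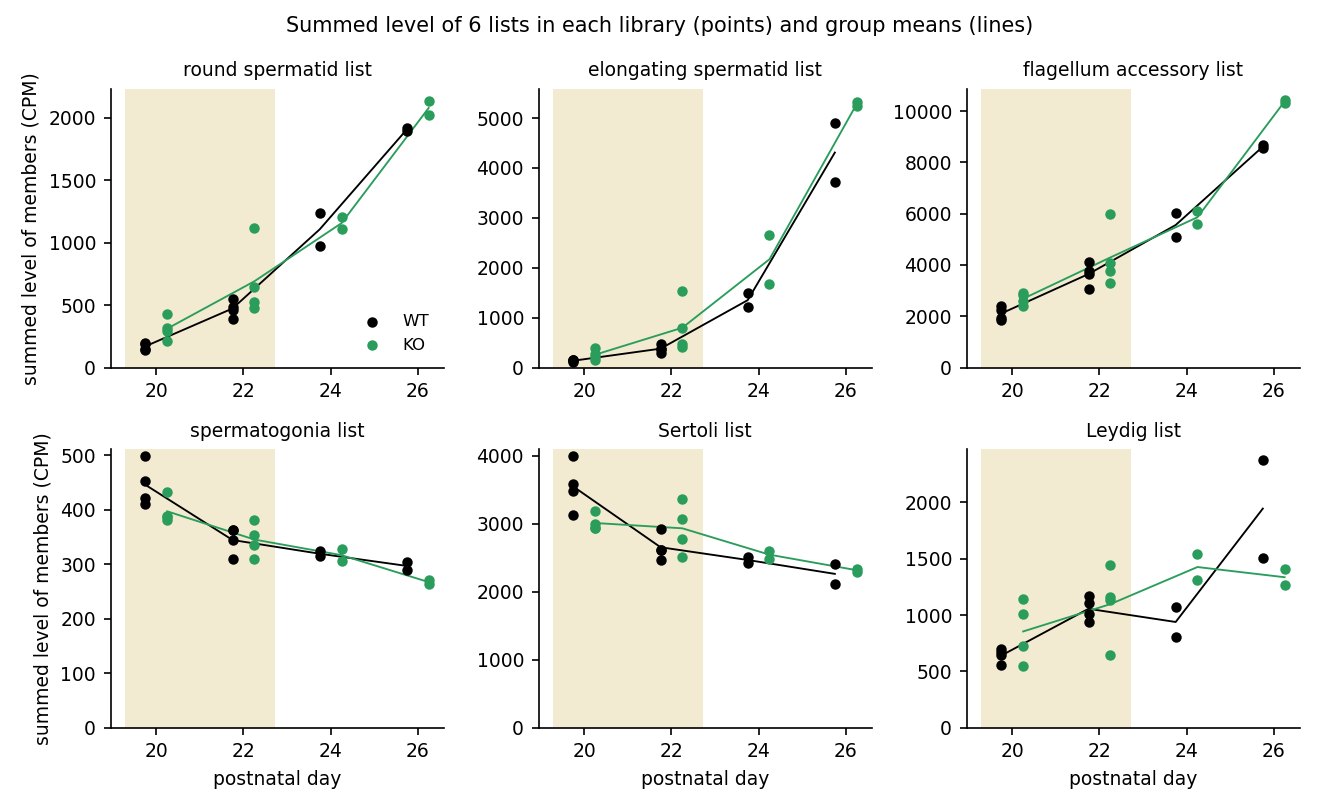
Summed level (CPM) of 6 lists in every library (points) by postnatal day, with lines through group means, WT and KO points offset sideways and the interval from day 20 to day 22 shaded. The WT round spermatid sum goes from 144 to 193 CPM at day 20 to 1894 to 1918 CPM at day 26, and 1 KO library of day 22 lies above its group in the spermatid lists.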

How the data were processed

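RNA of testis was extracted with TRIzol, ribosomal RNA was depleted and strand-specific libraries were sequenced as read pairs. The authors aligned the reads to mm10 with STAR 2.7.11b and counted pairs lying wholly within the exons of 1 gene with HTSeq, by strand and from unique alignments alone, and the deposited tables, 1 for each library, hold unnormalized counts by gene symbol. Genes with near-identical copies are therefore under-counted. The 5 tallies of unassigned pairs were left out. In the WT libraries of days 20 and 22 pairs on no counted exon were 47.2% to 58.5% of a table. Symbols were placed with GENCODE M21, and 111 of 24456 found no place.

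Genes and gene lists were chosen with earlier results of these data known. Counts were tested with edgeR 4.0.16 (limma 3.58.1, R 4.3.3): TMM scaling, filterByExpr at a minimum count of 10, a robust quasi-likelihood fit with 1 coefficient for each of 8 groups over all 24 libraries, two-sided tests, and Benjamini-Hochberg adjustment over all 17170 genes at a threshold of 0.05. CPM are TMM-scaled, and intervals of ratios are exact and cover counting error only, at the 95% level, since pairs carry no molecular identifiers. The floor is 3 counts over a group. Named genes were taken from the 15 largest rises and 15 largest falls with non-overlapping groups and a mean of 5 CPM in the higher group, from the first 4 tested members of each list and the 3 of lowest p in each direction, the 6 of lowest p for the difference between genotypes, the 5 most abundant changed genes in each direction, *Atad2* and *Hira*, and, chosen after their values were seen, members that complete a count (*Hormad2*, *Nanos3*, *Uchl1*, *Dnmt3b*, and uncalled energy and steroid genes). The scripts recovered known changes in simulated counts. The alternatives were DESeq2 1.42.0 and its size factors, other filters, a fit of the libraries compared alone, a replicate block, a test against a fold of 1.5, and each library left out. The authors normalized with DESeq2 1.22.2 and tested with SARTools. Promoter sequences of genes on 1 chromosome, and 1 gene that the rule named, are not reported here.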

Additional observations from a re-analysis of the deposited data

Results flagged for a closer look

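In groups of 4 libraries, a value was singled out where its gap to the nearest library was an unusually large part of the group's range. Of 351 groups of values examined, 47 (13.4%) held such a library, where chance flags about 1 in 20 groups. The library was WT_d20_2 in 15, WT_d20_4 in 12, WT_d20_3 in 6 and WT_d22_1 in 6.

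In WT_d20_4, 12 genes of spermatids stood above the other day 20 libraries. They were *Capza3* (0.720 CPM), *Gapdhs* (0.936), *Hyal5* (0.936), *Acrv1* (2.09), *Spaca1* (3.82), *Tnp1* (0.216), *Klhl10* (3.24), *Zp3r* (1.37), *Spaca5* (0.0720), *Odf3* (0.144), *Catsper3* (0.648) and *Cylc1* (0.936). All 12 were below their level in each day 22 library.

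In WT_d20_2 the high values were those of *Tnni3* (110.7 CPM), *Stra8* (45.1), *Syce2* (75.1), *Taf7l* (101.8), *Hist1h1t* (2011), *Hist1h2ba* (3222), *Atrx* (326), *Fdx1* (59.5), *Cox8c* (455) and *Tex16* (152), together with the summed levels of the early meiosis list (10150), the histone replacement list (9005), the X-linked postmeiotic list (184) and the X chromosome (29600). Its summed immediate early and heat shock list was low (221.6 CPM against 357 to 384 in the others). The library also had the highest share of pairs with several alignments and of mitochondrial ribosomal RNA. Their part in these values was not tested.

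In WT_d20_3 *Crisp1* (271 CPM), *Adam7* (4.57), *Fos* (2.14) and the epididymis list (279.6) were high, and the elongating spermatid list (100.4) and the list of sperm ion channels (1172) were low. In WT_d22_4 the same epididymal genes were high, with *Crisp1* at 520 CPM, *Adam7* at 9.82 CPM and the list at 537 CPM. In WT_d22_1 *Izumo4* (44.3 CPM), *H1fnt* (1.48), *Tekt4* (84.0), *Cox8c* (321) and *Speer4b* (8.17) were high and *Rnase10* (2.75) was low. WT_d20_1 was high in *Cox6b2* (178 CPM), WT_d22_2 was low in *Plk1* (57.1 CPM) and high in *Fos* (12.5 CPM), and WT_d22_3 was high in *Stra8* (21.6 CPM) and *Star* (230.2 CPM).

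The change of *Gm6408* between the ages differed between KO and WT by a test of the difference itself, with a value of -2.57 on the log2 scale (KO minus WT, adjusted p = 0.045 in edgeR).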

How the results depend on the processing

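Fold changes rest on 4 libraries an age, while the filter and the estimate of spread behind the calls used all 24 libraries. A gene at a few CPM is measured by few counts, so folds of such genes are imprecise. Against 3437 changed genes as reported (2210 higher, 1227 lower), DESeq2 size factors gave 3392, a looser filter 3074, a stricter one 3465 and the DESeq2 Wald test 3959. A fit of the 8 libraries alone gave 1404 (1134 higher, 270 lower), with 98.1% of them among the reported calls. A test against a fold of 1.5 gave 745 (740 higher, 5 lower). Leaving out 1 library gave 2197 to 3764 changed, 1693 to 2461 higher and 504 to 1418 lower, the fewest without WT_d22_1. The cause of these differences was not tested. For the change that differed between genotypes (1 gene as reported), DESeq2 gave 85, the stricter filter 1, and DESeq2 size factors, the looser filter, the fit of the libraries compared alone and the test against a fold of 1.5 gave 0 each. Leaving out 1 library gave 0 to 77.

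Same-numbered libraries of the 2 ages correlated at 0.168, 0.343, 0.106 and -0.188 in their deviations from the group means, and libraries of unlike number at -0.395 to 0.556. These values do not settle whether the numbers pair the libraries. The reported fit did not pair them, and a block was run as an alternative. A replicate block gave 3713 changed genes (2379 higher, 1334 lower) and 0 for the difference between genotypes. The block within the 8 libraries gave 2069 (1702 higher, 367 lower) and, within the libraries of both genotypes, 0. Of 4 day 20 libraries, WT_d20_3 and WT_d20_4 did not correlate best with their own number.

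Of the 148 genes named, 113 were called, and each kept its direction in every alternative run, while 84 stayed past the threshold whichever 1 library was left out. The fit of the 8 libraries alone lost 35 calls, and DESeq2 and its size factors lost that of *Nanos3*. The replicate block added a call for *Slc2a3*. Values that changed sign with a library left out belonged to genes that had not passed, and ran over the 8 such fits from -0.02 (without WT_d20_1) to 0.15 for *Gfra1*, from -0.11 to 0.01 (without WT_d22_3 or WT_d22_4) for *Sycp3*, from -0.87 to 0.13 and from -0.57 to 0.31 (without WT_d20_2) for *Hist1h1t* and *Hist1h2ba*, and from -3.86 to 7.56 and from -2.73 to 4.26 for *Crisp1* and *Adam7*, where the lower value was without WT_d22_4 and the higher without WT_d20_3. The ranges were -0.10 to 0.48 for *Cox8c*, -0.22 to 0.20 for *Slc25a31* and -0.20 to 0.11 for *Akr1c14*, each highest without WT_d20_2, and -0.07 (without WT_d22_1) to 0.36 for *Srd5a1*.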
